A study of Mus musculus with 48 samples.

Results

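The difference between the effect of deleting Ikzf1 in c-Kit-high pro-B cells and its effect in total pro-B cells was measured here, gene by gene, in mouse pro-B cell RNA. For each gene the deletion effect was the mean log2 level in deleted libraries minus that in control libraries, and the difference was the c-Kit-high effect minus the total pro-B effect. Levels were RPKM, reads per kilobase of gene model scaled to library size, and 1 was added before the logarithm was taken. A gene entered if at least 2 of the 8 libraries reached 1 RPKM, which 11518 of the 21025 gene models did. At that limit Klf5 was the lowest gene taken in, with a second highest value of 1.0004 RPKM, and Slc5a3 was the highest left out, at 0.9997 RPKM. A positive difference means that the deleted libraries stood higher above, or less far below, their controls in c-Kit-high cells than in total pro-B cells.

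The study asked how the transcription factor Ikaros acts at successive stages of early B-cell development, and it deposited 48 RNA and chromatin samples. The 8 libraries used here form 4 groups of 2. Deleted cells carried Ikzf1(fl/-) Cd79a(Cre/+), in the c-Kit-high group and in the total pro-B group, and control cells carried Ikzf1(fl/+) Cd79a(Cre/+) in each. All were of the C57BL/6 strain. All 4 groups therefore carried Cre on 1 Cd79a allele and a floxed Ikzf1 allele, and control cells kept 1 wild-type Ikzf1 allele. Cre made from Cd79a, a B-lineage gene, deletes in B-lineage cells, so other cells in a sample keep the floxed allele. The labels name the second setting only as pro-B, with no c-Kit gate, and it is called total pro-B here. Whether the cells of either setting were cultured or taken directly from animals is not given, so a difference between the settings cannot be told apart from one between such sources. Whether the 2 libraries of a group are different animals is not given, and the spread behind each p-value is that of these libraries, part or all of which may be technical.

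Ikaros is a zinc-finger protein that binds DNA and acts both as an activator and, with the NuRD chromatin complex, as a repressor. In B-lineage progenitors it is needed for commitment and for the pro-B to pre-B transition, and Ikzf1 is often lost in human B-cell acute lymphoblastic leukaemia. Pro-B cells rearrange the immunoglobulin heavy chain gene and depend on interleukin-7 and stem cell factor, the ligand of the receptor tyrosine kinase c-Kit. c-Kit is highest early in this stage and falls as cells become pre-B cells.

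Of 12 pro-B markers, 10 were above 1 RPKM in all 8 libraries, among them the signalling chain Cd79a at 307.0 to 348.4 RPKM in c-Kit-high libraries and 213.1 to 273.5 RPKM in total pro-B libraries. The exceptions were the recombinase genes Rag1 and Rag2, which were below 1 RPKM in deleted total pro-B cells, where Rag2 had 0.0238 and 0.0261 RPKM. The differences of 3 of the 12 were positive and of 2 negative. Kit was at 34.2 to 46.2 RPKM in c-Kit-high libraries and 18.7 to 32.6 RPKM in total pro-B libraries, so the gated group was higher at the RNA level in every library. Depth, implied by the size of 1 read in short genes and counted in the reads that the authors scaled to, was about 2310000 to 12400000 reads in 6 libraries. The lowest was c-Kit-high control replicate 2 and the next was 9370000 reads. The other 2 libraries, c-Kit-high deleted replicate 2 and c-Kit-high control replicate 1, gave no single step.

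These 2 libraries also stood apart in content. Replication-dependent histone genes summed to 1948.9 RPKM in c-Kit-high deleted replicate 2 and 1767.6 RPKM in c-Kit-high control replicate 1, against 97.1 to 164.8 RPKM in the other 6. The 18 granulocyte markers summed to 155.5 and 365.1 RPKM in deleted and to 736.4 and 120.9 RPKM in control c-Kit-high libraries, with the higher value in that same pair. In total pro-B they summed to 5.38 to 7.19 RPKM in deleted and 0.992 to 1.32 RPKM in control libraries, with S100a8, S100a9 and Ngp at 0 in all 4. None of the 42 histone and 17 granulocyte genes tested differed past the threshold by limma. Of them 0 and 1 had an unadjusted p below 0.05, against 2461 of all 11518 genes tested. The part of histone or granulocyte RNA in other differences was not tested.

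Ikzf1 itself was lower in deleted than in control libraries of both settings. It had 64.5 and 86.0 RPKM in c-Kit-high deleted libraries and 101.3 and 123.8 RPKM in their controls, and 45.3 and 48.9 RPKM in total pro-B deleted libraries and 59.2 and 56.4 RPKM in their controls. The groups did not overlap in either setting. The effect was -0.58 ± 0.15 (log2, SE, adjusted p = 0.0250) in c-Kit-high and -0.29 ± 0.15 (adjusted p = 0.204) in total pro-B cells. The difference of -0.29 was not called by limma (adjusted p = 0.475), and from c-Kit-high deleted replicate 2 and control replicate 1 alone it was 0.06. Reads from exons outside the floxed part count in this value, so it does not measure how many cells had deleted the gene. The other family members did not differ between settings past the threshold either. Ikzf3, which encodes Aiolos, rose by 2.43 in c-Kit-high and 2.12 in total pro-B cells, a difference of 0.31 (adjusted p = 0.642).

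Of the 11518 genes, 771 had a difference that passed an adjusted p of 0.05, which is 6.69% of the genes tested. The difference was positive for 512 (4.45%) and negative for 259 (2.25%). These 2 shares are the background for the counts of each list below. The effect itself was called for 17.3% of genes in c-Kit-high and 23.5% in total pro-B cells, and the median difference over all genes was -0.01. The number called depended on single libraries. Without 1 library at a time it ran from 129 to 697 positive and from 72 to 503 negative, lowest without total pro-B control replicate 2 and highest without c-Kit-high control replicate 1. It was 84 and 37 when the c-Kit-high effect came from deleted replicate 2 and control replicate 1 alone, and 370 and 226 from the other pair. In all 8 leave-one-out fits 117 positive and 56 negative calls were kept. Genes named below were called in all 8 unless the paragraph says otherwise. With all 14 pro-B and pre-B libraries in 1 fit 21 named genes were not called, among them Id3, Hk1, Slc16a3, Slc7a7 and Mzb1. A term for the pair with high histone RNA, added after seeing the data, gave 660 positive and 376 negative calls. These included all 512 and 259. The term marks 1 deleted and 1 control library, so it left each difference unchanged and altered only the spread. Keeping these calls is therefore no check on that pair. From that pair alone, 66 named genes kept their direction and were not called. They include Erg (1.76), Cdh5 (3.46), Ramp1 (-2.13), Cttn (2.17), Hspg2 (2.83), Galnt3 (2.30), Gpr171 (-1.52), Slc7a7 (-1.64), Cdkn2a (2.27), and Emx2 (-3.80).

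A gene was called silent in a setting where none of its 4 libraries reached 1 RPKM. Expressed in both settings were 10729 genes, with 422 positive and 234 negative calls. Silent in total pro-B were 545 genes, with 38 and 14 calls, and silent in c-Kit-high were 244 genes, with 52 and 11. The share called was 6.11%, 9.54% and 25.8% of these classes, which is no comparison between them, because a gene silent in 1 setting entered only through libraries of the other. Near the limit, Gm5643 was silent in c-Kit-high with a highest value of 0.9975 RPKM and Col3a1 was not, at 1.0014 RPKM. For total pro-B the values were 0.9967 RPKM for Mapk8ip1, silent, and 1.0005 RPKM for Ghrl, not silent. The classes are given apart below, since a gene with almost no RNA in one setting cannot fall there.

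Among the 422 genes expressed in both settings with a positive difference, the largest group was 168 that fell in total pro-B and were not called in c-Kit-high cells. A further 110 rose in c-Kit-high and were not called in total pro-B, 55 fell in both, 51 rose in both and 35 rose in c-Kit-high but fell in total pro-B cells. Among the 234 with a negative difference, 119 rose in total pro-B and were not called in c-Kit-high, 63 rose in both, 31 fell in c-Kit-high and were not called in total pro-B, 10 fell in c-Kit-high and rose in total pro-B, and 8 fell in both. For 3 genes in each direction neither effect was called. The effect was larger in size in total pro-B for 242 of the 422 and 188 of the 234. The median difference was 1.46 and -1.14 (log2).

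**Figure D1:**
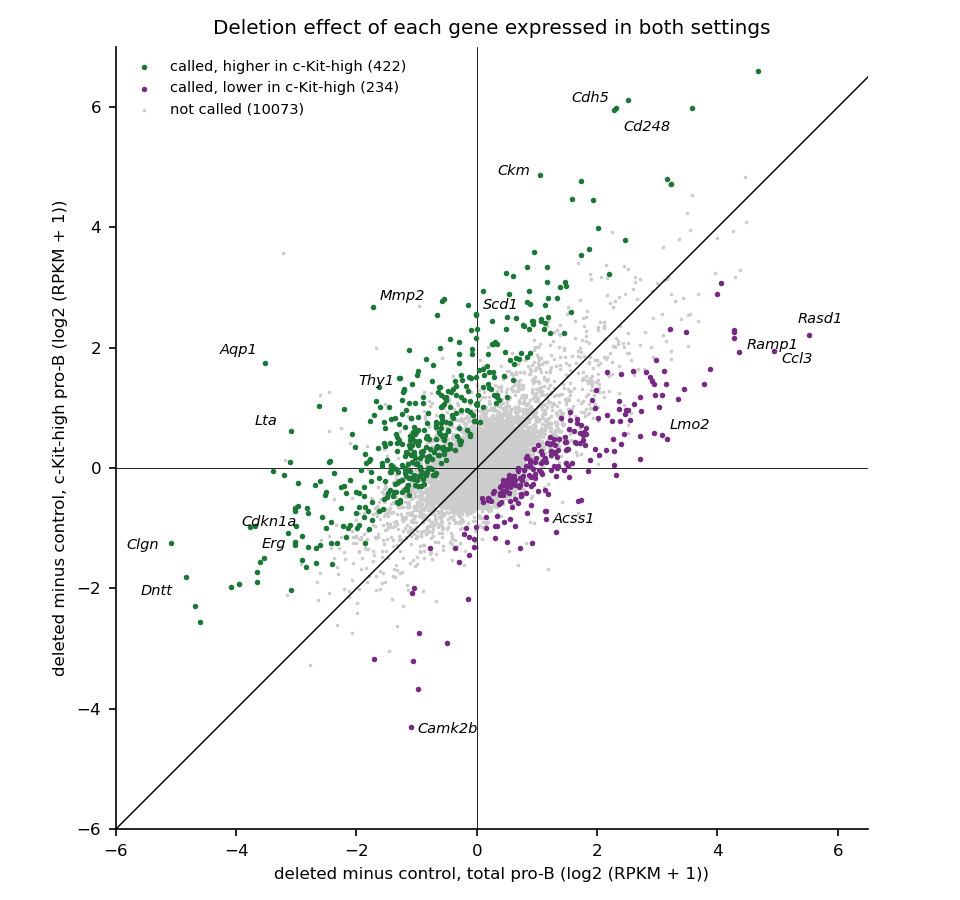
Deletion effect (deleted minus control, log2 of RPKM + 1) in c-Kit-high cells on the vertical axis and in total pro-B cells on the horizontal axis, 1 point per gene expressed in both settings. Genes on the diagonal had equal effects. The 422 genes above it in green and the 234 below it in purple are those whose difference was called, with named examples.

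**Figure D2:**
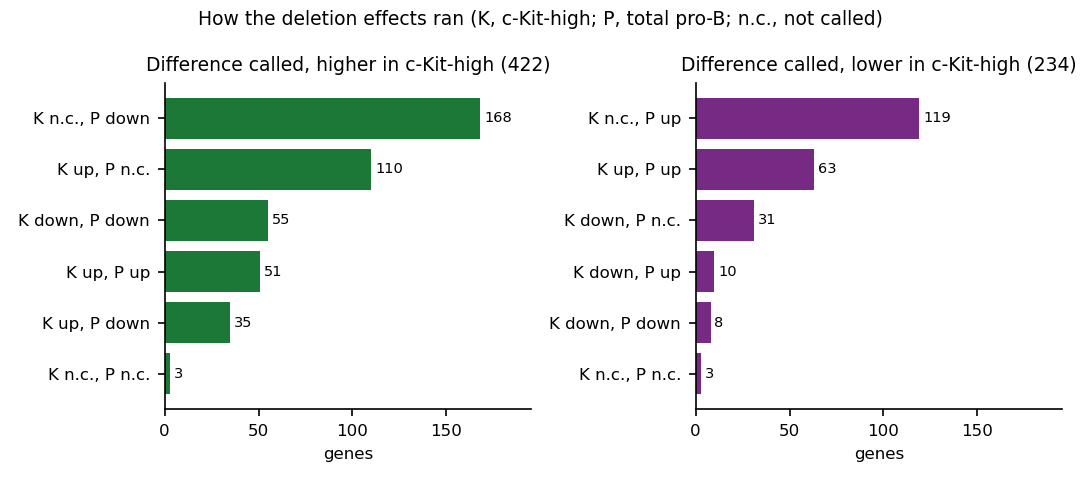
Number of genes (bars) by the direction of each deletion effect, for the 422 genes with a positive difference on the left and the 234 with a negative one on the right. K is c-Kit-high, P is total pro-B and n.c. is not called. The most frequent pattern on each side is an effect called in total pro-B alone, with 168 and 119 genes.

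Dntt and Rag1, which act in V(D)J recombination, fell in both settings and fell further in total pro-B cells. Dntt encodes terminal deoxynucleotidyl transferase, which adds untemplated nucleotides at heavy chain joints. It had 413.4 and 306.9 RPKM in c-Kit-high deleted libraries against 1138.3 and 1383.3 RPKM in controls, and 6.49 and 4.14 RPKM in total pro-B deleted libraries against 189.7 and 165.0 RPKM in controls. Deleted total pro-B cells were far below all other groups, while deleted c-Kit-high cells stayed above total pro-B controls. The effect was -1.81 ± 0.20 in c-Kit-high and -4.84 ± 0.20 in total pro-B cells, a difference of 3.03 ± 0.29 (log2, SE, adjusted p = 0.00123). Rag1, a subunit of the recombinase, had 143.3 and 80.8 RPKM in c-Kit-high deleted libraries against 283.1 and 361.3 RPKM in controls. In total pro-B cells it had 0.872 and 0.20 RPKM in deleted and 20.2 and 14.8 RPKM in control libraries. No group overlapped another. Its difference was 2.05 ± 0.45 (adjusted p = 0.0396) and depended on the pseudocount and on single libraries. It was 3.44 and not called with a pseudocount of 0.1, and 0.99 and not called with a pseudocount of 3. It was 1.64 to 2.46 with 1 library left out and was called without total pro-B deleted replicate 1 or c-Kit-high deleted replicate 2 but not without any of the other 6. Of the 13 recombination genes tested, the list's only other call was the DNA ligase Lig4, at -1.26 (adjusted p = 0.0468), which was called in 1 of the 8 leave-one-out fits, without c-Kit-high control replicate 1. Rag2, the other recombinase subunit, fell by 1.74 in c-Kit-high and by 2.60 in total pro-B cells, and its difference of 0.86 was not called (adjusted p = 0.212). The list median was -0.24.

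The promoters of Dntt and Rag1 are shown because Ikaros is known to bind near the start of mouse Dntt. Each runs from 250 bases before the RefSeq start to 50 bases after it, on the gene's strand, in build GRCm38.p6, which is not the mm9 build of the expression files. Capitals mark the letters GGGAA or, on the other strand, TTCCC, the core of many Ikaros binding sequences. Dntt is at chr19:41029025-41029324 on the plus strand and Rag1 at chr2:101649483-101649782 on the minus strand.
Dntt: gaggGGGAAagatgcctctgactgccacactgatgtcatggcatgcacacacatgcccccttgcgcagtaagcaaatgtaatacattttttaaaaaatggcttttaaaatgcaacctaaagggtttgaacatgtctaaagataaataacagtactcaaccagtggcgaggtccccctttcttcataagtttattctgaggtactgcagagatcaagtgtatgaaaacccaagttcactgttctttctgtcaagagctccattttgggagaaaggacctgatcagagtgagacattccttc
Rag1: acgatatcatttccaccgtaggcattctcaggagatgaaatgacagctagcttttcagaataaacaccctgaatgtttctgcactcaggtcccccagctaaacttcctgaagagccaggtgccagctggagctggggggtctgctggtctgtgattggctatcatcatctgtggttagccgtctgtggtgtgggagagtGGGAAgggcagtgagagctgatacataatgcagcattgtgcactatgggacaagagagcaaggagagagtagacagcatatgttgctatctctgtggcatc
Both windows hold the core 1 time. In Dntt it lies at the upstream end of the window, away from the start, so it does not mark the known binding. Other Ikaros binding sequences were not searched for. The core is a common string. It is held by 62.7% of 32851 listed mouse promoters and by 64.8% of the 9157 tested genes with a listed promoter. Among called genes the share was 67.6% of 386 with a positive difference and 63.7% of 212 with a negative one. A match is only a match of letters, and the Ikaros chromatin samples of the series were not used here.

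Lmo2 and Erg, transcriptional regulators of blood progenitors, differed between the settings in opposite directions. Lmo2, an adaptor of stem-cell transcription factor complexes, had 60.7 and 59.6 RPKM in c-Kit-high deleted libraries against 35.5 and 47.0 RPKM in controls, and 56.8 and 62.0 RPKM in total pro-B deleted libraries against 6.18 and 6.11 RPKM in controls. All 4 deleted libraries lay between 56.8 and 62.0 RPKM, while the controls of the 2 settings were far apart. The effects were 0.55 ± 0.14 and 3.08 ± 0.14, a difference of -2.53 ± 0.20 (adjusted p = 0.000399). Erg, an ETS factor of blood stem cells, had 110.1 and 95.7 RPKM in c-Kit-high deleted libraries against 232.2 and 251.3 RPKM in controls. In total pro-B cells it had 14.5 and 9.33 RPKM in deleted libraries against 104.4 and 100.4 RPKM in controls. It fell in both, by 1.23 in c-Kit-high and by 3.03 in total pro-B cells, and the difference was 1.81 ± 0.24 (adjusted p = 0.00381). These were the 2 calls among 15 stem and progenitor genes tested, whose median difference was 0.33. Kit was not called (-0.50, adjusted p = 0.222).

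Of the 28 B-lineage identity genes tested, 4 had a positive and 5 a negative difference, against 4.45% and 2.25% of all genes. The list median was -0.13. With 1 library left out there were 2 to 3 positive and 1 to 7 negative calls, and the pair with high histone RNA alone gave 2 and 2. Irf8, a transcription factor of B and myeloid cells, rose by 0.67 ± 0.11 in c-Kit-high cells, with 169.3 and 177.9 RPKM in deleted and 119.1 and 98.7 RPKM in control libraries. It fell by 0.60 ± 0.11 in total pro-B cells, with 101.8 and 98.6 RPKM in deleted and 151.5 and 153.9 RPKM in control libraries. The difference was 1.28 ± 0.15 (adjusted p = 0.00255), and the order of deleted and control was opposite in the 2 settings. Id3, an inhibitor of E proteins, fell less in c-Kit-high than in total pro-B cells, by 0.57 and by 1.74, a difference of 1.17 (adjusted p = 0.00767). Pou2af1, the coactivator OBF-1, differed by -1.0 (adjusted p = 0.00517), with an effect of -0.28 in c-Kit-high and 0.72 in total pro-B cells. Pax5, the factor of B-cell commitment, had a smaller difference of -0.64. It was not called without c-Kit-high deleted replicate 1 or without any single total pro-B library, over -0.73 to -0.55.

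Of the 25 genes tested that mark pre-B and later B cells, 9 rose and 3 fell with deletion in both settings. No others were called in c-Kit-high cells, and in total pro-B cells 15 rose and 4 fell in all. Over all genes 11.2% rose and 6.09% fell in c-Kit-high cells, and 13.3% rose and 10.2% fell in total pro-B cells, against 36% and 12%, and 60% and 16%, of this list. Among the differences 1 was positive and 6 negative, against 4.45% and 2.25% of all genes. The list median was -0.62 against -0.01 over all genes. Ccr7, a chemokine receptor that guides lymphocytes into lymphoid tissue, had 27.3 and 22.5 RPKM in c-Kit-high deleted libraries against 9.18 and 11.6 RPKM in controls. It had 62.6 and 60.1 RPKM in total pro-B deleted libraries against 7.78 and 9.19 RPKM in controls, and the difference was -1.53 (adjusted p = 0.00507). Deleted libraries were above controls in each setting, and total pro-B deleted libraries were highest. The negative calls included Ccr7, Cd38, H2-Aa, H2-Ob and Irf4, and the positive one was Ltb. Of these Ltb and H2-Ob were called only without c-Kit-high control replicate 1 or 2, and H2-Aa only without c-Kit-high deleted replicate 1 or 2, over 1.5 to 2.61, -1.99 to -1.20 and -2.50 to -1.42. Cd38 was called only without c-Kit-high control replicate 1 or total pro-B deleted replicate 1, over -1.42 to -0.97. Irf4, a factor of pre-B and plasma cells, was not called without total pro-B control replicate 2 (-1.03) or total pro-B deleted replicate 2 (-1.11). With 1 library left out, the list had 0 to 3 positive and 2 to 6 negative calls, and its median ran from -0.86 to -0.35. From c-Kit-high deleted replicate 2 and control replicate 1 alone there were 1 and 2.

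Among the receptors and targets of interleukin-7 signalling, 4 of 22 had a positive and 2 a negative difference. The shares over all genes were 4.45% and 2.25%, and the list median was -0.02. Il7r, the receptor chain, had 92.6 and 113.2 RPKM in c-Kit-high deleted libraries against 71.2 and 97.2 RPKM in controls, which overlap, and 22.1 and 22.7 RPKM in total pro-B deleted libraries against 8.49 and 7.93 RPKM in controls, which do not. The difference was -1.05 (adjusted p = 0.0253). Cish, a STAT5 target that dampens cytokine signalling, had 58.5 and 51.7 RPKM in c-Kit-high deleted libraries against 25.2 and 13.0 RPKM in controls. In total pro-B cells it had 58.7 and 50.4 RPKM in deleted libraries against 64.1 and 67.8 RPKM in controls, and its difference was 1.82 (adjusted p = 0.0216). Only c-Kit-high controls stood apart, below the other 6 libraries. Il7r was not called without c-Kit-high deleted replicate 1 or any single total pro-B library, over -1.27 to -0.83. Cish was called only without c-Kit-high control replicate 1 or 2, over 1.37 to 2.27. The list had 0 to 5 positive calls with 1 library left out.

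Glycolysis, which turns glucose into pyruvate and lactate, gave the list with the most positive differences. Of 23 tested, 12 fell in total pro-B and none rose, while 2 rose and 3 fell in c-Kit-high. Over all genes 10.2% fell and 13.3% rose in total pro-B cells, against 52.2% and 0% of this list, and 11.2% rose and 6.09% fell in c-Kit-high cells, against 8.7% and 13%. The difference was positive for 9 and negative for 0, against 4.45% and 2.25% of all genes, with a list median of 0.85. The 9 were the glucose transporter Slc2a1, the lactate exporter Slc16a3 and the enzymes Hk1, Pfkl, Aldoa, Tpi1, Eno1, Pkm and Ldha. Pkm, pyruvate kinase, had 187.3 and 174.3 RPKM in c-Kit-high deleted libraries against 219.3 and 203.4 RPKM in controls, and 358.2 and 328.0 RPKM in total pro-B deleted libraries against 859.3 and 826.9 RPKM in controls. Total pro-B controls were highest and their deleted counterparts lay between them and both c-Kit-high groups. Aldoa, aldolase, had 112.9 and 103.5 RPKM in c-Kit-high deleted libraries against 81.5 and 96.4 RPKM in controls. In total pro-B cells it had 343.0 and 326.4 RPKM in deleted and 612.1 and 627.7 RPKM in control libraries, and the difference was 1.17 ± 0.15 (adjusted p = 0.00345).

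Summed over the 24 listed genes, glycolysis RNA was 877.5 to 961.9 RPKM in c-Kit-high deleted and 978.8 to 999.3 RPKM in c-Kit-high control libraries. In total pro-B it was 1796.9 to 1821.2 RPKM in deleted and 3520.5 to 3539.6 RPKM in control libraries, so the control level differed between the settings. Slc2a1 was not called without total pro-B control replicate 2, where it was 1.12. Ldha was not called without either total pro-B control, nor Tpi1 without total pro-B control replicate 2 or deleted replicate 2. Eno1 and Pfkl were called only without c-Kit-high deleted replicate 2 or control replicate 1. The list had 4 to 11 positive calls with 1 library left out, over a median of 0.71 to 0.99. The pair of c-Kit-high deleted replicate 2 and control replicate 1 alone gave 4 calls. Gapdh, Pgk1 and Pgam1, not called, have near-identical copies in the mouse genome that can take reads from them, and their levels are uncertain.

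**Figure D3:**
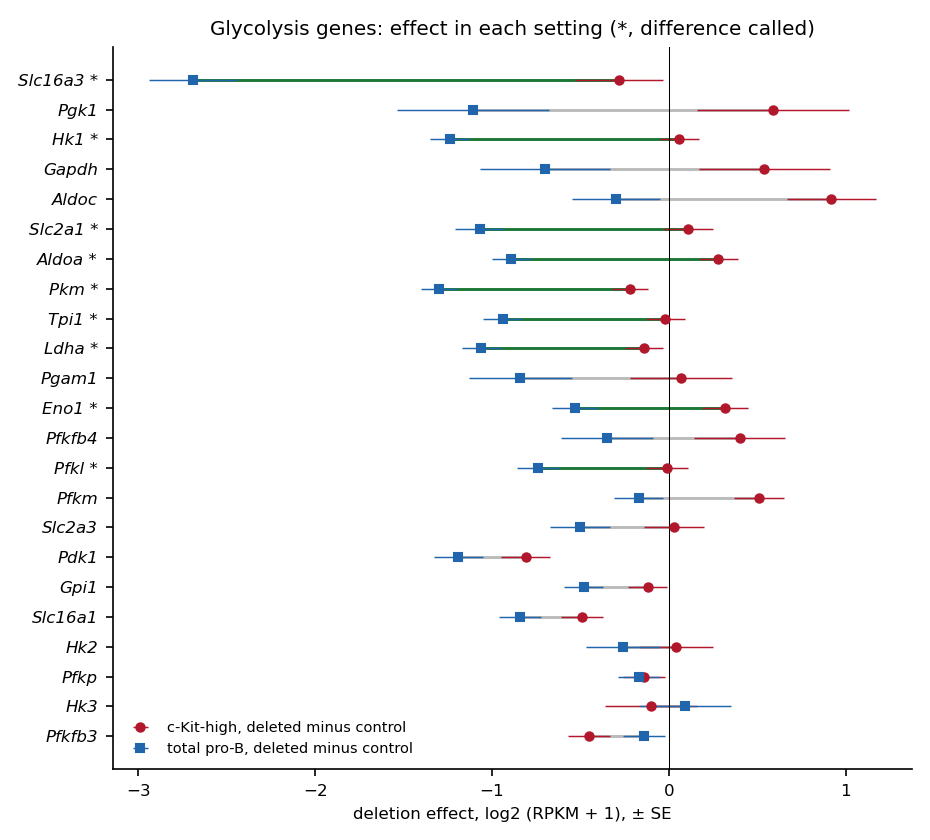
Deletion effect (horizontal axis, log2 of RPKM + 1, bars are SE) of the 23 glycolysis genes tested, with c-Kit-high as red circles and total pro-B as blue squares. An asterisk and a green line mark the 9 genes whose difference was called. Total pro-B effects lie left of zero for most genes and c-Kit-high effects lie near zero.

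Related metabolic lists had fewer calls. Of 26 cholesterol and fatty acid genes tested 2 had a positive difference, and 1 to 6 with 1 library left out. Scd1, the desaturase that makes monounsaturated fatty acids, had 41.8 and 48.1 RPKM in c-Kit-high deleted libraries against 6.64 and 7.14 RPKM in controls, and 145.2 and 142.5 RPKM in total pro-B deleted libraries against 146.1 and 144.1 RPKM in controls. It rose in c-Kit-high cells by 2.54 ± 0.11 and was level in total pro-B cells at -0.01 ± 0.11, a difference of 2.55 ± 0.15 (adjusted p = 0.000147). Its level in c-Kit-high cells stayed below that of total pro-B cells even after deletion. Of 20 genes of the pentose phosphate pathway and of folate and serine metabolism 3 were called, all positive. Over all genes 4.45% had a positive difference. The largest of the 3, that of Gldc, belongs to the genes silent in c-Kit-high cells. The others, Phgdh (0.75) and Shmt2 (0.57), were not called in every leave-one-out fit, over 0.62 to 0.88 and 0.51 to 0.62. The list had 1 call with a pseudocount of 0.1, without a filter on low values or with quantile normalization. With neither trend nor robust moderation it also had 1.

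Cd248, Cdh5 and Serpinh1, surface and matrix genes of stromal and endothelial cells, gave some of the largest positive differences, with larger rises in c-Kit-high cells. Cd248, which encodes endosialin, had 139.5 and 162.5 RPKM in c-Kit-high deleted libraries against 1.56 and 1.35 RPKM in controls, and 244.6 and 188.2 RPKM in total pro-B deleted libraries against 39.0 and 47.9 RPKM in controls. It rose by 5.95 ± 0.16 and by 2.28 ± 0.16, a difference of 3.67 ± 0.22 (adjusted p = 0.000147). Cdh5, VE-cadherin, had 104.5 and 67.0 RPKM in c-Kit-high deleted libraries against 0.239 and 0.433 RPKM in controls. Total pro-B cells had 7.70 and 2.97 RPKM in deleted and 0.238 and 0.122 RPKM in control libraries, and the difference was 3.67 ± 0.49 (adjusted p = 0.00410). Controls were near 0 in both settings for Cdh5 and only in c-Kit-high for Cd248. The collagen chaperone Serpinh1 differed by 3.61 (adjusted p = 0.0216), was called only without total pro-B control replicate 1 or 2 or total pro-B deleted replicate 1, and ranged from 3.02 to 4.20. Nrp1 and Tead2 rose in both settings, by 3.81 and 4.24 in c-Kit-high and by 3.36 and 3.50 in total pro-B cells, with differences of 0.44 and 0.74 that were not called.

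The whole endothelial and stromal list of 18 genes summed to 761.7 to 781.1 RPKM in c-Kit-high deleted and 146.0 to 178.7 RPKM in c-Kit-high control libraries. In total pro-B it summed to 420.2 to 567.2 RPKM in deleted and 213.0 to 276.9 RPKM in control libraries. Cd248, Cdh5 and Serpinh1 had means of 151.0, 85.8 and 181.6 RPKM in c-Kit-high deleted libraries, a large part of the sum there. Of 15 tested, 6 had a positive and 1 a negative difference (median 0.97), and 1 and 0 from the pair with high histone RNA alone. The shares over all genes were 4.45% and 2.25%. The negative difference was that of Pecam1. In c-Kit-high cells 7 of the 15 rose and 0 fell, and the median effect was 0.04, so the rise was not list-wide. Of the 6 with a positive difference, Cxcl12 was silent in c-Kit-high cells, with effects of -0.02 there and -1.85 in total pro-B cells. Pdgfrb had effects of 1.72 in c-Kit-high and -0.73, not called, in total pro-B cells. A subset moved the other way in total pro-B cells, chosen after its values were seen: Col1a1, Col1a2, Col3a1, Pdgfra, Pdgfrb, Cxcl12 and Lepr, which mark fibroblastic stroma, summed to 25.9 to 26.3 RPKM in deleted and 71.0 to 109.3 RPKM in control total pro-B libraries. Cxcl12 was not called without total pro-B control replicate 2. In c-Kit-high they summed to 3.08 to 4.62 RPKM in deleted and 0.971 to 7.34 RPKM in control libraries. Lepr was at 0 in all 8, and Col1a1 was at 4.10 RPKM in c-Kit-high control replicate 2 and at 0.379 to 0.410 RPKM in the other 3. The part of stromal RNA in the differences below was not tested, and in bulk samples fewer cells of a type and less RNA per cell cannot be told apart.

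Effects called in opposite directions were found for 45 genes expressed in both settings, 35 of them higher with deletion in c-Kit-high and lower in total pro-B cells. The largest was Aqp1, a water channel. It had 26.1 and 16.4 RPKM in c-Kit-high deleted libraries against 7.32 and 4.07 RPKM in controls, and 9.36 and 4.24 RPKM in total pro-B deleted libraries against 82.6 and 84.3 RPKM in controls. The effects were 1.74 ± 0.37 and -3.52 ± 0.37, a difference of 5.26 ± 0.53 (adjusted p = 0.00327). Mmp2, a gelatinase that stromal cells secrete, had 12.9 and 7.05 RPKM in c-Kit-high deleted libraries against 0.499 and 0.850 RPKM in controls. Total pro-B cells had 1.4 and 1.71 RPKM in deleted and 5.95 and 9.25 RPKM in control libraries, a difference of 4.39 ± 0.41 (adjusted p = 0.000981). For both genes deleted libraries were above controls in c-Kit-high and below them in total pro-B. The same held for the perlecan gene Hspg2, at 3.08, and for Kirrel, an immunoglobulin-family adhesion gene, at 3.35.

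Thy1, a surface glycoprotein of T cells and some progenitors, had 52.2 and 52.1 RPKM in c-Kit-high deleted libraries against 22 and 20.4 RPKM in controls, and 65.7 and 54.9 RPKM in total pro-B deleted libraries against 145.7 and 137.5 RPKM in controls. The 4 deleted libraries lay between 52.1 and 65.7 RPKM, with c-Kit-high controls below and total pro-B controls above them. The effects were 1.26 ± 0.12 and -1.22 ± 0.12, a difference of 2.48 ± 0.16 (adjusted p = 0.000210). Sema7a, a membrane semaphorin, differed by 2.66, the fatty acid desaturase family gene Fads3 by 2.79, the transcription factor Sox13 by 3.18 and the O-glycosylation enzyme Galnt3 by 2.97. In the other direction 10 genes fell in c-Kit-high and rose in total pro-B cells. Acss1, mitochondrial acetyl-CoA synthetase, had 44.4 and 44.1 RPKM in c-Kit-high deleted libraries against 65.3 and 82.1 RPKM in controls, and 71.0 and 74.5 RPKM in total pro-B deleted libraries against 31.7 and 32.9 RPKM in controls. Its difference was -1.86 ± 0.17 (adjusted p = 0.000981), and the orphan receptor Gpr171 also differed by -1.86 and the amino acid transporter Slc7a7 by -1.60.

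Icam1 and Cdkn1a fell in both settings and fell further in total pro-B cells. Icam1, the ligand of the integrin LFA-1, had 10.9 and 9.78 RPKM in c-Kit-high deleted libraries against 23.0 and 24.5 RPKM in controls, and 2.63 and 2.20 RPKM in total pro-B deleted libraries against 24.9 and 24.1 RPKM in controls. Controls of the 2 settings were nearly level. The effects were -1.13 ± 0.14 and -2.90 ± 0.14, a difference of 1.77 ± 0.20 (adjusted p = 0.00187). Of 41 integrin and focal adhesion genes tested 4 had a positive and 2 a negative difference, against 4.45% and 2.25% of all genes. The list median was 0.23. Leaving out 1 library gave 2 to 7 positive and 0 to 3 negative calls, and the pair with high histone RNA alone gave 1 and 0. The actin-binding Cttn was among the 4, and rose by 2.44 in c-Kit-high cells against 0.26, not called, in total pro-B cells.

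Cdkn1a, which encodes the inhibitor p21, had 25.1 and 30.4 RPKM in c-Kit-high deleted libraries against 40.4 and 49.0 RPKM in controls, and 7.52 and 5.94 RPKM in total pro-B deleted libraries against 51.5 and 55.5 RPKM in controls. The difference was 2.15 ± 0.22 (adjusted p = 0.00123). Ccne1, cyclin E1, had 19.7 and 21.1 RPKM in c-Kit-high deleted libraries against 21.8 and 20.9 RPKM in controls, which overlap, and 21.1 and 23.5 RPKM in total pro-B deleted libraries against 59.3 and 66.2 RPKM in controls. Total pro-B controls stood above the other 6 libraries, and the difference was 1.39 (adjusted p = 0.00255). Ccnd3, the D cyclin of pre-B cell expansion, fell by 0.86 in c-Kit-high and by 1.75 in total pro-B cells, a difference of 0.89 (adjusted p = 0.0175) that was not called without c-Kit-high deleted replicate 2, either total pro-B control or total pro-B deleted replicate 2, over 0.75 to 1.02. In all, 4 of 21 cyclin and inhibitor genes had a positive and 2 a negative difference, against 4.45% and 2.25% of all genes. The list median was 0.04, and -0.10 to 0.21 with 1 library left out. The calls were 4 and 0 without a filter on low values. They were 3 and 0 with all 14 pro-B and pre-B libraries in 1 fit, and with neither trend nor robust moderation. Of 25 mitotic genes tested the phosphatase Cdc25b was the 1 call, at -0.95, lost without c-Kit-high deleted replicate 1 (-0.89), total pro-B control replicate 2 (-0.83) or total pro-B deleted replicate 2 (-0.93).

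Some large negative differences belonged to genes expressed mainly in c-Kit-high controls. Camk2b, a subunit of a calcium-regulated kinase, had 0.127 and 0.298 RPKM in c-Kit-high deleted libraries against 22 and 24.2 RPKM in controls, and 0 and 0.275 RPKM in total pro-B deleted libraries against 1.26 and 1.59 RPKM in controls. Deleted cells were near 0 in both settings. The difference was -3.22 ± 0.30 (adjusted p = 0.000981), and with a pseudocount of 0.1 it was -3.30 and not called. The metalloreductase Steap4 had the same pattern, at -2.70 and, with that pseudocount, -1.29 and not called. Other genes had low total pro-B controls. Ramp1, a receptor co-chain for calcitonin gene-related peptide, had 119.9 and 109.1 RPKM in c-Kit-high deleted libraries against 22.6 and 37.7 RPKM in controls, and 78.0 and 75.9 RPKM in total pro-B deleted libraries against 3.66 and 2.10 RPKM in controls. It rose in both, and its difference was -2.43 ± 0.35 (adjusted p = 0.00585). The chemokine Ccl3 rose to 4.71 and 4.50 RPKM in c-Kit-high deleted libraries, against 1.12 and 0 RPKM in controls, and to 34.1 and 32.6 RPKM in total pro-B deleted libraries, against 0.109 and 0.123 RPKM in controls. Its difference was -3.00 (adjusted p = 0.00517), and -3.52 and not called with a pseudocount of 0.1. Across all genes tested, 4.45% had a positive and 2.25% a negative difference. Of 19 chemokine and migration genes tested 3 had a positive and 6 a negative difference, which were 0 to 4 and 3 to 7 with 1 library left out.

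**Figure D4:**
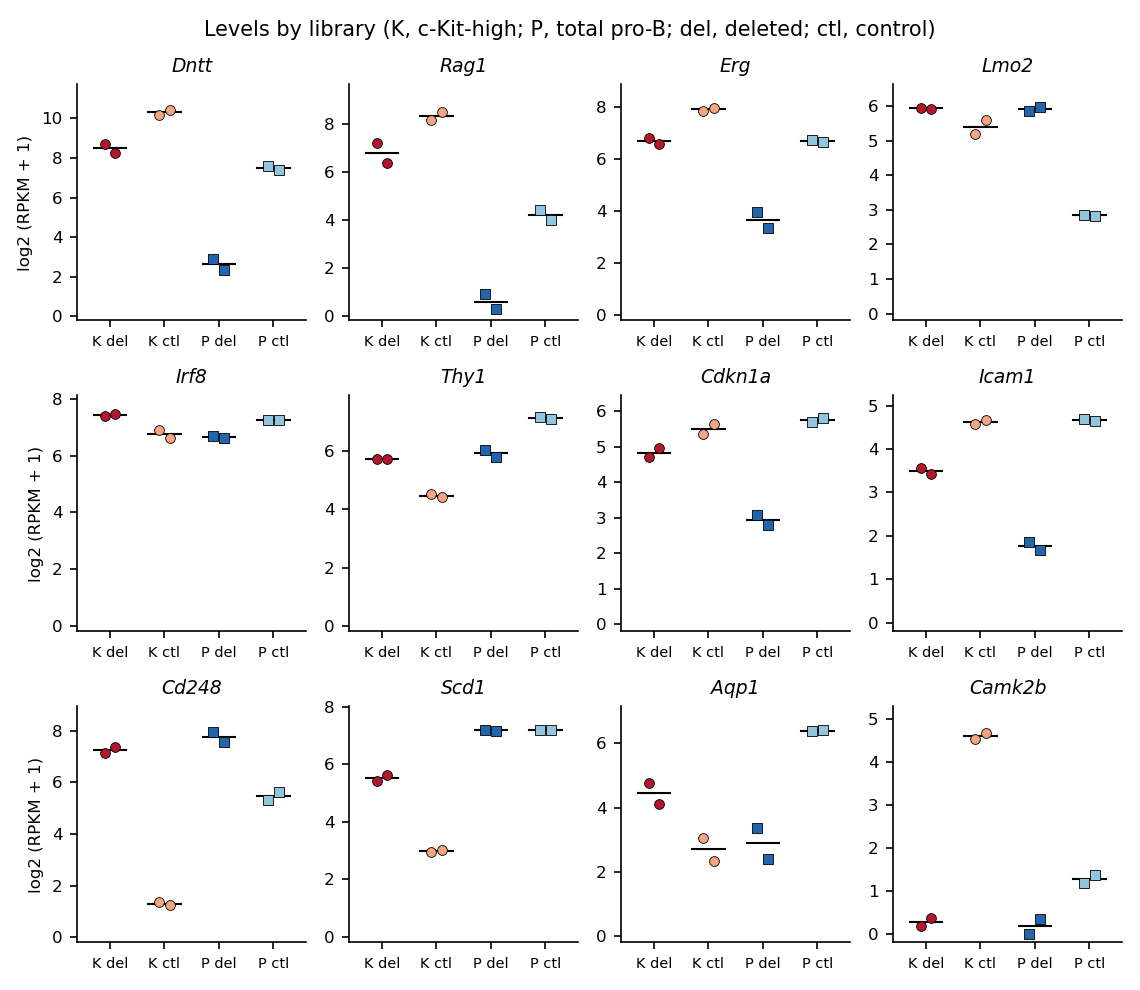
Level of 12 genes in each library (points, log2 of RPKM + 1, lines are group means), with groups from left to right c-Kit-high deleted, c-Kit-high control, total pro-B deleted and total pro-B control. Dntt, Rag1, Erg, Cdkn1a and Icam1 fell furthest in total pro-B cells, Irf8, Thy1 and Aqp1 went opposite ways, and Cd248 and Scd1 rose more in c-Kit-high cells.

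Genes silent in c-Kit-high cells had the 2 largest differences among the 771 called, both from an effect seen in total pro-B cells. Tubb3, the neuronal beta-tubulin, had 0.804 and 0.0507 RPKM in c-Kit-high deleted libraries against 0.521 and 0.250 RPKM in controls, and 1.97 and 0.257 RPKM in total pro-B deleted libraries against 178.1 and 172.5 RPKM in controls. Only total pro-B controls expressed it at more than 2 RPKM, and it fell by 6.51 ± 0.39 there (difference 6.51 ± 0.55, adjusted p = 0.000969). Gldc, the decarboxylase of the glycine cleavage system, had 0.819 and 0 RPKM in c-Kit-high deleted libraries against 0.0366 and 0 RPKM in controls. Total pro-B cells had 0.684 and 0.188 RPKM in deleted and 61.9 and 71.5 RPKM in control libraries (difference 5.98 ± 0.42, adjusted p = 0.000292). The melanocortin receptor Mc1r, at 3.96, and Tmem59l, at 3.79, were likewise high in total pro-B controls only. Cdkn2a, which encodes p16 and p19 ARF, had 0.468 and 0.331 RPKM in c-Kit-high deleted libraries against 0.535 and 0 RPKM in controls, and 0.922 and 1.4 RPKM in total pro-B deleted libraries against 8.95 and 13.3 RPKM in controls. Its difference was 2.65 (adjusted p = 0.00567), but 4.13 and not called with a pseudocount of 0.1, and not called with all 14 pro-B and pre-B libraries in 1 fit (adjusted p = 0.119).

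The Gldc promoter, shown because Gldc had the second largest difference among called genes, is at chr19:30175392-30175691 on the minus strand in build GRCm38.p6, with the same core letters in capitals. It holds them 2 times, 1 on each strand.
Gldc: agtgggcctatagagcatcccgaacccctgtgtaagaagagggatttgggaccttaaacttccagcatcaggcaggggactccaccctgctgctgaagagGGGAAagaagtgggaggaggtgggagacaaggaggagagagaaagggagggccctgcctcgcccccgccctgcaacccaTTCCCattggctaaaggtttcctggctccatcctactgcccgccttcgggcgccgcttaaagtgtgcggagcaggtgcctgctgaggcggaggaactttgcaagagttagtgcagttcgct
Binding to it was not examined, because the Ikaros chromatin samples of the series were not used here.

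In the same class, 11 genes rose in total pro-B more than in silent c-Kit-high cells. Tox, a nuclear factor of T-cell development, had 0.373 and 0.832 RPKM in c-Kit-high deleted libraries against 0.557 and 0.151 RPKM in controls, and 16.1 and 14.8 RPKM in total pro-B deleted libraries against 0.272 and 0.307 RPKM in controls. Its difference was -3.43 ± 0.33 (adjusted p = 0.00120). The homeobox gene Emx2 had 0.0821 and 0.403 RPKM in c-Kit-high deleted libraries against 0 and 0 RPKM in controls, and 26.6 and 28.0 RPKM in total pro-B deleted libraries against 0 and 1.09 RPKM in controls. Both were high in total pro-B deleted libraries and low in the other 6. Emx2 differed by -3.99 ± 0.45 (adjusted p = 0.00207), and by -4.72, not called, with a pseudocount of 0.1. The embryonic globin Hbb-bh1 was at 0 in all 6 libraries other than total pro-B deleted, which had 3.69 and 7.24 RPKM. It shares sequence with the other beta-globins, so its reads are uncertain.

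Of the genes silent in total pro-B cells, 38 had a positive and 14 a negative difference. Jchain, the joining chain of secreted immunoglobulins, had 0.304 and 1.07 RPKM in c-Kit-high deleted libraries against 22.2 and 10.9 RPKM in controls, and was at 0 to 0.0464 RPKM in all total pro-B libraries. It fell by 3.33 ± 0.33 in c-Kit-high cells (difference -3.30 ± 0.47, adjusted p = 0.00511). The receptor gene Fcrl6, at -3.10, the homeobox gene Dlx1, at -2.35, and the killer-cell receptor Klrb1c, at -2.32, fell in the same way. With a pseudocount of 0.1 Fcrl6 was -2.83 and Klrb1c -2.74, both not called, and Klrb1c was also not called from the pair with high histone RNA alone (-1.89). Dlx1 was -3.79 with that pseudocount and was called.

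In the other direction, genes appeared with deletion in c-Kit-high cells and stayed silent in total pro-B cells. Hapln1, a linker of hyaluronan and proteoglycans, had 4.18 and 6.38 RPKM in c-Kit-high deleted libraries against 0 and 0 RPKM in controls, and 0.0479 and 0.0175 RPKM in total pro-B deleted libraries against 0 and 0 RPKM in controls. Its difference was 2.58 ± 0.33 (adjusted p = 0.00327). Adamtsl2, a matrix glycoprotein gene, had 6.51 and 8.14 RPKM in c-Kit-high deleted libraries against 0.263 and 0.265 RPKM in controls, and differed by 2.71 (adjusted p = 0.00255). Rian, an imprinted noncoding RNA, had 5.71 and 7.79 RPKM in c-Kit-high deleted libraries against 0 and 0.238 RPKM in controls, and differed by 2.42 (adjusted p = 0.00381). The deleted c-Kit-high libraries were highest for all 3. With a pseudocount of 0.1 Hapln1 was 5.32 and Adamtsl2 4.34, both called, and Rian was 3.55 and not called. Meg3, from the same imprinted domain, differed by 2.54 but was not called without total pro-B control replicate 1 (2.55), total pro-B control replicate 2 (2.53) or total pro-B deleted replicate 2 (2.49).

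**Figure D5:**
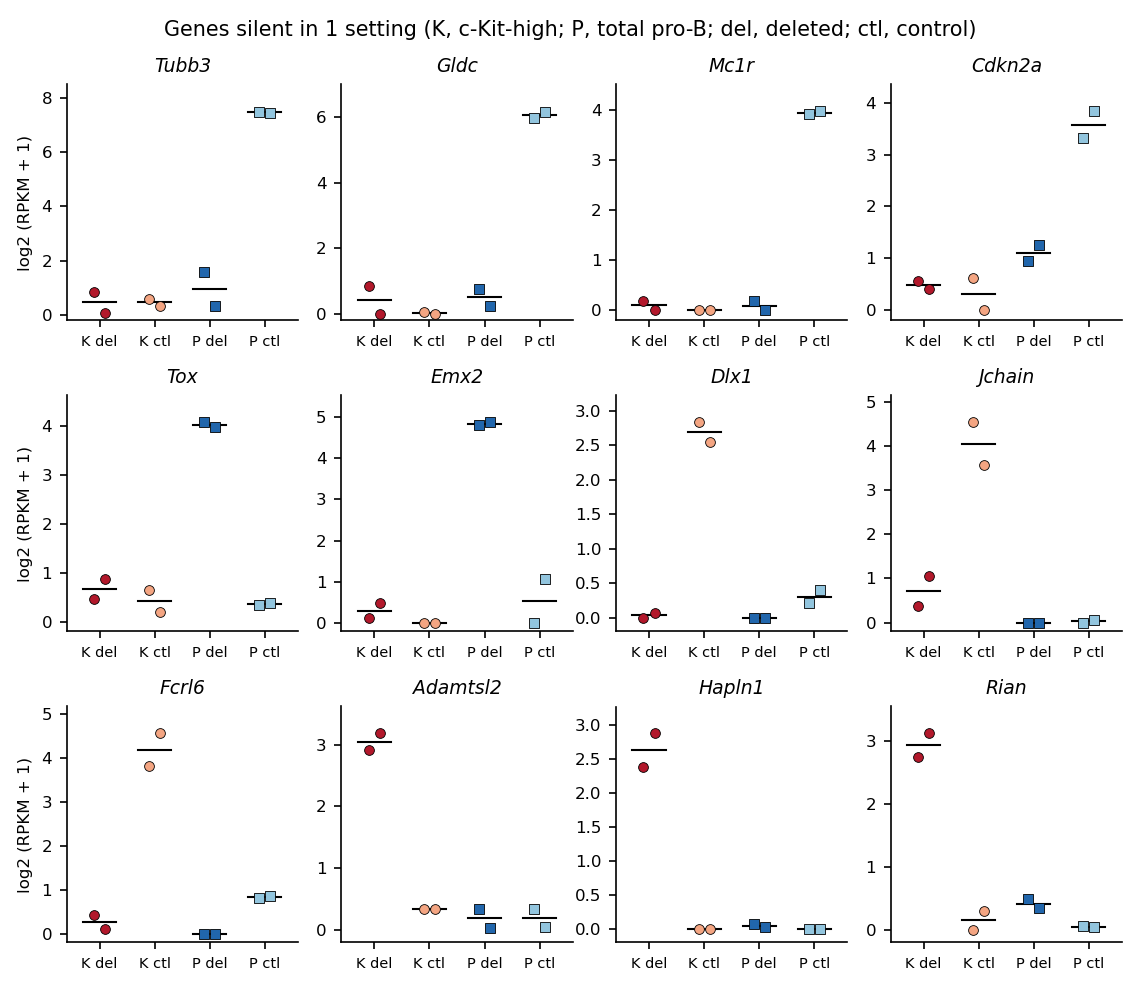
Level of 12 genes silent in 1 setting in each library (points, log2 of RPKM + 1, lines are group means), with groups from left to right c-Kit-high deleted, c-Kit-high control, total pro-B deleted and total pro-B control. Tubb3, Gldc, Mc1r and Cdkn2a were high in total pro-B controls, Tox and Emx2 in total pro-B deleted libraries, Dlx1, Jchain and Fcrl6 in c-Kit-high controls, and Adamtsl2, Hapln1 and Rian in c-Kit-high deleted libraries.

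Several genes outside these lists had large differences by the same fits. Lta, the cytokine lymphotoxin alpha, had 2.77 and 1.74 RPKM in c-Kit-high deleted libraries against 1.70 and 0.624 RPKM in controls, and 18.7 and 11.8 RPKM in total pro-B deleted libraries against 122.5 and 146.1 RPKM in controls. Total pro-B controls were far above the other 6 libraries, and the difference was 3.70 ± 0.41 (adjusted p = 0.00207). Clgn, a chaperone of the endoplasmic reticulum, fell in both settings, by 1.24 in c-Kit-high and by 5.08 in total pro-B cells, a difference of 3.84 (adjusted p = 0.00327). Ckm, muscle creatine kinase, had 29.2 and 27.7 RPKM in c-Kit-high deleted libraries against 0 and 0 RPKM in controls, and 1.93 and 0.561 RPKM in total pro-B deleted libraries against 0 and 0.0687 RPKM in controls. It rose in both settings, and the difference was 3.83 ± 0.40 (adjusted p = 0.00134). Pnp2, a purine nucleoside phosphorylase with a close copy, Pnp, next to it, differed by 3.35 and its reads are uncertain.

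The remaining lists gave few calls. Among 26 genes of the pre-B cell receptor and its signalling 2 had a positive and 2 a negative difference, with a median of 0.06. Pik3ap1, the adaptor BCAP, had 251.4 and 242.2 RPKM in c-Kit-high deleted libraries against 193.4 and 223.8 RPKM in controls, and 216.5 and 227.5 RPKM in total pro-B deleted libraries against 94.6 and 85.1 RPKM in controls. Total pro-B controls were below the other 6 libraries, and the difference was -1.05 ± 0.15 (adjusted p = 0.00517). Mzb1, a chaperone of antibody-making cells, fell by 0.89 in c-Kit-high and by 2.42 in total pro-B cells, and its difference of 1.53 was the 1 positive call among 11 plasma cell genes, which had 3 negative ones. Of 10 Notch receptors and targets Nrarp, a feedback inhibitor, had a positive difference of 1.55. Heyl, a target, had a negative one of -1.46, which was 0.74 and not called with a pseudocount of 0.1, so its direction depends on the scale. It was not called either without a deleted c-Kit-high library, total pro-B control replicate 2 or total pro-B deleted replicate 2. Of 23 genes of NF-kB and the TNF receptor family 2 were positive and 2 negative, and of 18 immediate early and stress genes 3 were positive. The immediate early list had 0 to 2 positive calls with 1 library left out, and 0 from either c-Kit-high pair alone. Of 22 chromatin complex genes the remodelling ATPase Smarca4 was the 1 call, at -0.55 (adjusted p = 0.0468), and it was called in 1 of the 8 leave-one-out fits, without c-Kit-high control replicate 1.

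No gene was called by limma in 6 further lists. The count with an unadjusted p below 0.05 was 2 of 29 for oxidative phosphorylation, 2 of 24 for ribosome biogenesis and Myc targets, 11 of 29 for DNA replication, 3 of 31 for cytosolic ribosomal proteins, 5 of 15 for the Bcl2 family and 2 of 26 for interferon-stimulated genes. Over all 11518 genes tested the count was 2461. The median differences of these lists, in the same order, were 0.05, 0.07, 0.25, 0.09, 0.01 and -0.06. Markers of other blood cells gave calls in 2 of 17 monocyte, 1 of 9 erythroid and 1 of 7 T-lineage genes tested, all positive. Of 4 natural killer and dendritic cell genes tested 1 was called, Klrb1c, and it was negative. Over all genes 4.45% had a positive and 2.25% a negative difference. The monocyte genes Lyz2 and Ly6c1 and the erythroid gene Car2 were not called in every leave-one-out fit. Their differences ran over 1.21 to 1.99, 2.23 to 3.56 and 0.84 to 1.17. With a pseudocount of 0.1 the monocyte list had 0 calls.

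The Rag2-null pro-B libraries of the series, 2 deleted and 2 control, were in none of these 4 groups and are set beside the genes with opposite calls. Of the 35 genes higher with deletion in c-Kit-high and lower in total pro-B cells, 21 had both deleted Rag2-null libraries above both controls and 6 had both below, with 8 in neither position. Over all 11518 genes these shares were 38.1% above and 24.0% below. Of the 10 genes with opposite calls the other way, 2 were above and 5 below. Aqp1 differed by 1.32 and Mmp2 by 2.40 (deleted minus control, log2) in Rag2-null cells, on the side of c-Kit-high. Thy1 differed by -2.20, on the side of total pro-B, and Irf8 by 0.04. These are values of single libraries and no test was made on them.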

How the data were processed

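RNA was extracted with phenol-chloroform and sequenced as strand-specific single-end libraries, per the labels' protocols. TopHat 1.4.1, HTSeq 0.5.3, DESeq 1.8.3 and the mm9 build stand in the submitters' processing notes, with no role given. The authors deposited 1 RPKM value per gene model and library, already divided by gene length and library size, so no count test was run and changes of low genes are understated on the log2(RPKM + 1) scale. Files of chromatin samples and of the pre-pro-B knock-down samples were not used here. Of 21025 gene models, 20661 were named by RefSeq accession and 191 by symbol, 173 kept the file's symbol and 111 shared a symbol with another. No 2 libraries held identical values (0 pairs). Depth was read from the step that 1 read makes in short genes, within 0.1 read.

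The difference of deletion effects was fitted with limma 3.58.1 in R 4.3.3 on the 8 libraries of 4 groups, with trend and robust moderation and 4 residual degrees of freedom. Two-sided p-values were adjusted by Benjamini-Hochberg over all 11518 genes and called below 0.05. The procedure was tested on simulated data. Tables and plots were made with Python 3.11.15, pandas 2.3.3, numpy 2.4.6 and matplotlib 3.10.9. The comparison, its members and the 33 gene lists were chosen with earlier results of these data known. Named genes were Ikzf1, the deleted gene, and others that reached 3 RPKM in their highest group and had library differences that did not overlap between settings. These were the 10 largest differences each way, 8 each way with opposite calls, 5 each way with both effects called in the same direction, 5 each way in each silent class, and at most 4 called genes from each list. Predicted, small RNA and histone genes were left out of all but the last. Other genes named, such as Ccr7, Pou2af1, Ccnd3, Pkm, Eno1, Tpi1, Pfkl, Ldha, Nrp1 and Tead2, were chosen after their values were seen. For 19 alternatives the fit was repeated with 1 choice changed, and 1 more, a term for 2 c-Kit-high libraries with high histone RNA (3 residual degrees of freedom), was added after seeing the data. Some genes called are not reported here.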

Additional observations from a re-analysis of the deposited data

Results flagged for a closer look

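The differences reported above are differences between settings by a test of the difference itself, 512 genes being higher and 259 lower in c-Kit-high than in total pro-B cells. The named genes whose effects were called in opposite directions in the 2 settings are given again because deletion moved them opposite ways. With deletion higher in c-Kit-high and lower in total pro-B cells, the differences were 5.26 for Aqp1, 4.39 for Mmp2, 3.35 for Kirrel, 3.18 for Sox13, 3.08 for Hspg2, 2.97 for Galnt3, 2.79 for Fads3, 2.66 for Sema7a, 2.48 for Thy1 and 1.28 for Irf8 (log2). With deletion lower in c-Kit-high and higher in total pro-B cells, they were -2.39 for Pqlc3, -2.16 for the lipid kinase gene Pip5k1b, -2.05 for the potassium channel gene Kcng1, -1.99 for Eps8, -1.86 for Acss1, -1.86 for Gpr171, -1.60 for Slc7a7 and -1.27 for Klhl6. With 1 library left out, Pip5k1b was not called without c-Kit-high deleted replicate 2 or total pro-B control replicate 2, Eps8 without total pro-B deleted replicate 2, and Klhl6 without c-Kit-high deleted replicate 2, total pro-B control replicate 2 or total pro-B deleted replicate 2.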

How the results depend on the processing

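With 1 library left out the counts of positive and negative differences ran from 129 to 697 and from 72 to 503, against 512 and 259 with all 8. They were 84 and 37 when the c-Kit-high effect came from deleted replicate 2 and control replicate 1 alone, 370 and 226 from the other pair, and 374 and 198 with a pseudocount of 0.1. The cause was not tested. Under the other 8 alternatives the counts stayed within 1.5 times those reported. Of the named genes, 66 were not called from deleted replicate 2 and control replicate 1 alone, 33 with a pseudocount of 0.1, 24 without a filter on low values, 21 with all 14 pro-B and pre-B libraries in 1 fit, 20 with neither trend nor robust moderation and 14 with quantile normalization. The sign turned for Heyl, at 0.74 with a pseudocount of 0.1, and for Ikzf1, at 0.06 from deleted replicate 2 and control replicate 1 alone. Of 109 named genes called, 61 were called in all 8 leave-one-out fits. No paired analysis was possible because the labels give no replicate numbers that groups share. A term for the 2 c-Kit-high libraries with high histone RNA, chosen after seeing the data, gave 660 and 376 and kept all 512 and 259 calls. That term cannot move a difference, only its spread, so the kept calls are no check on those 2 libraries. With 2 libraries a group, a fit without 1 of them assumes that the lone one varies like the rest, and low genes are limited by the shallowest library at about 2310000 reads.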
